A study of Fundulus heteroclitus with 8 samples.

Results

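Protein kinases attach phosphate groups to serine, threonine or tyrosine residues of other proteins, and protein phosphatases take them off again. In the testis of vertebrates, gonadotropins act on Leydig cells largely through cyclic AMP and the cyclic AMP-dependent protein kinase, and kinases and phosphatases of the germ cells take part in meiosis, in shaping the sperm and in sperm movement. The 84 probes described here are all non-control probes of a custom mummichog array whose product name contains protein kinase, serine/threonine, tyrosine-protein, mitogen-activated, casein kinase, protein phosphatase, tyrosine phosphatase or dual specificity, out of 7157 probes in all. Names with cyclin, cell division, aurora, mitotic, death-associated, inhibin or activin were left out, which removed 4 probes. The 84 probes carried 71 product names, among them 11 probes for other proteins whose long names mention a kinase or phosphatase, such as 14-3-3 proteins. Another 4 probes, for mitogen-activated protein kinase organizer 1, MEK binding partner 1 and protein phosphatase methylesterase 1, are for partners of the enzymes and were described with them.

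Testis RNA came from 8 adult males of the mummichog (Fundulus heteroclitus, an estuarine killifish), 1 single-colour Cy3 array each. DHT50 denotes 4 males that received 5α-dihydrotestosterone through the water at 50 µg/L over 21 days, an androgen that aromatase cannot convert to an estrogen. Control denotes the other 4 males, at 0 µg/L over the same 21 days. The comparison asks which kinase and phosphatase transcripts of the testis differed between DHT50 and control males. A value is the log2 signal of a probe minus the 75th percentile of its array, called its level below, with 0 for a probe at that percentile, and a change is the mean level in DHT50 minus that in control. Levels were not set against those of another probe.

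In brightness, that is the 75th percentile of log2 signal, the arrays covered a 9.44-fold range, from 7.97 in DHT50 2 to 10.95 in DHT50 1 in the exposed group and from 9.99 in control 2 to 11.21 in control 1 in the control group. DHT50 2, 3 and 4, at 7.97, 9.13 and 9.50, were each dimmer than every control, so brightness was partly confounded with exposure. Between 61 (DHT50 2) and 77 of the 84 kinase and phosphatase probes cleared the background threshold, per array. The germ cell marker vasa was well above background on all 8 arrays. Of the 4 somatic testis markers, the follicle-stimulating hormone receptor was so on 4 DHT50 and 4 control arrays, the luteinizing hormone receptor and cytochrome P450 17A1 on 3 DHT50 and 4 control arrays each, and steroidogenic acute regulatory protein on 2 DHT50 and 4 control arrays. The level of vasa was -2.37 to -0.02 in DHT50 against -1.17 to 0.03 in control. Summed levels of the 4 somatic markers were -1.85 to 0.44 in DHT50 against -0.54 to 0.06 in control. Of 4 probes named after sperm or flagellum proteins 2 were never well above background and 0 were so on all 8 arrays. Summed levels of the liver and plasma markers (29 of 34 probes tested) were 2.53 to 5.86 in DHT50 against 2.99 to 9.27 in control, where control 1 held the 9.27 and the other controls reached at most 5.31. Leukocyte markers (23 of 29) summed to 2.64 to 6.31 in DHT50 against 2.74 to 4.29 in control, muscle markers (30 of 44) to 4.13 to 5.12 against 4.26 to 5.05, and red blood cell markers (12 of 18, by the name hemoglobin) to 6.34 to 7.17 against 6.71 to 7.15. Markers were taken by product name, and some names only mention one. Among these were a hemoglobin-haptoglobin binding protein and, in the liver list, a mitochondrial electron transfer flavoprotein-ubiquinone oxidoreductase. The groups overlapped in the summed level of each of these 4 marker lists, and the part of other cell types in the changes below was not tested. At an unadjusted p under 0.05 (limma) were 3 of 29 liver and plasma, 2 of 23 leukocyte, 1 of 12 red blood cell and 0 of 30 muscle probes. Among all tested probes the share was 4.71%. In whole testis RNA, fewer cells of a type and less RNA per cell cannot be told apart.

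Of the 84 kinase and phosphatase probes, 76 were tested, since at least 4 arrays showed them well above background. They made up 90.48% of the kinase and phosphatase probes, against 83.68% of all probes, and 60 (71.43%, against 64.26% of all probes) were well above background on every array. The 8 untested probes were those for dual specificity phosphatase 13, a PRPK-binding protein, 1 of 2 probes for protein phosphatase 1 regulatory subunit 3C and 1 of 2 for SR-protein kinase 2, each well above background on 0 arrays, and those for integrin-linked kinase 1, 1 of 2 for mitogen-activated protein kinase 12, dual specificity phosphatase 26 and ephrin type-B receptor 4, each so on at most 1 array per group. For these 8 no level or change is given.

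No kinase or phosphatase transcript passed the test between DHT50 and control males. With limma and Benjamini-Hochberg adjustment over all 5989 tested probes, 0 of 76 were past an adjusted p of 0.05, where the share among all tested probes was also 0.00%. At an unadjusted p under 0.05 there were again 0 of 76, where all tested probes gave 4.71% (3.29% higher and 1.42% lower in DHT50). The 4 DHT50 levels lay wholly above or wholly below the 4 control levels in 0 of 76, where all tested probes gave 2.22% (1.27% above and 0.952% below). The lowest unadjusted p among the kinase and phosphatase probes was 0.0592 and the lowest adjusted p was 0.685. Changes were positive for 40 probes and negative for 36, which is 52.6% positive against 53.6% of all tested probes. The median change was 0.04 against 0.06. Positive changes were mostly of probes with lower levels and negative ones mostly of probes with higher levels. Whether the sign of a change followed the level was not tested. The 4 scalings tried were the reported one, normexp background correction, quantile scaling and the log2 table that the authors deposited. Quantile scaling and the deposited table gave nearly the same changes. Under all 4 scalings, 36 kept a positive and 32 a negative sign.

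The changes of the kinases and phosphatases were also small in size. A change of more than 1 in either direction was found in 3 of 76 probes (3.95%), against 11.5% of all tested probes, and the median size of a change was 0.37 against 0.44. The median standard error of a change was also smaller, 0.41 for these probes against 0.45 for all tested probes. For the kinase and phosphatase probes, a change of the median size was thus no larger than its error. Replicate spread was wider in DHT50, with a median SD of 0.65 against 0.38 in control. Over all tested probes the median SD was 0.71 in DHT50 and 0.50 in control. The DHT50 SD exceeded the control SD in 52 of 76 probes (68.4%, against 69.3% of all tested probes). The 39 tested probes for kinases and their subunits had a median change of -0.0065, with 19 positive and 20 negative, and the 23 for phosphatases and their subunits had a median of 0.16, with 13 positive and 10 negative.

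**Figure D1:**
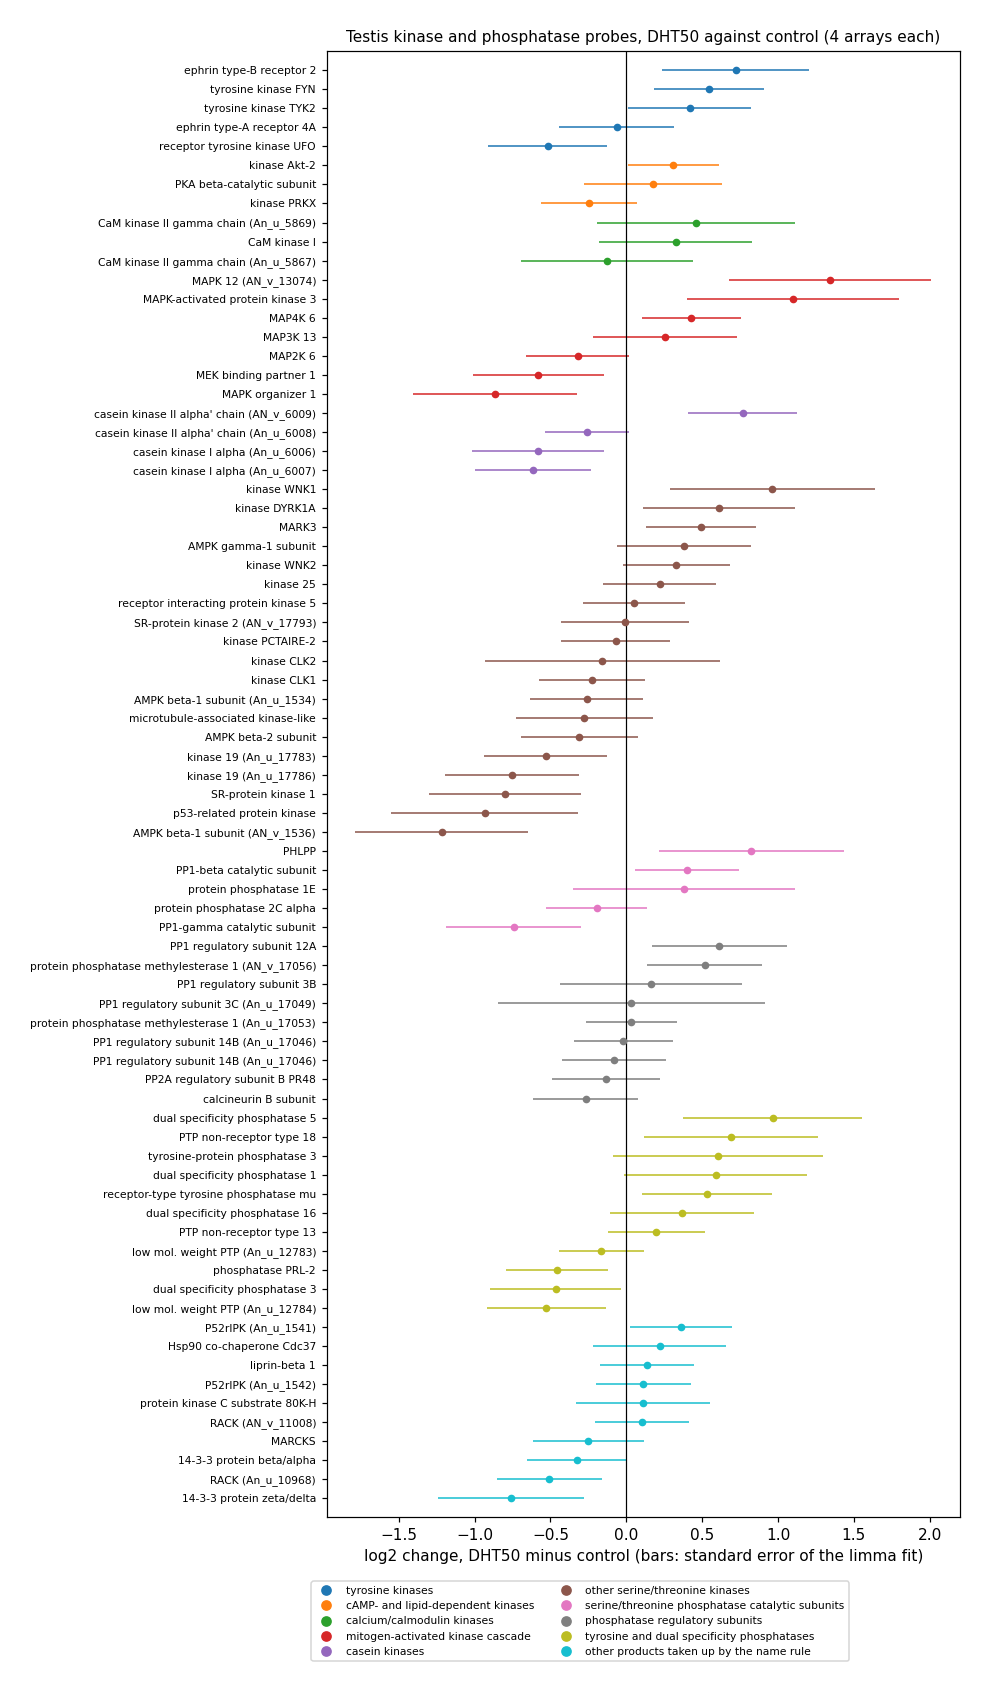
Log2 change (DHT50 minus control, horizontal axis) of the 76 tested kinase and phosphatase probes with the standard error of the limma fit as bars, coloured by role, 4 arrays per group. Changes run from -1.22 (AMP-activated protein kinase beta-1 subunit) to 1.34 (mitogen-activated protein kinase 12), both signs occur in each role, and none passed the test.

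The named members below are those with the highest and the lowest change in each role, with the cyclic AMP-dependent kinase and any further probe of the same product. Their adjusted p lay between 0.685 and 0.935 (limma), so their changes are given as values and not as differences. Where another background correction, normexp with an offset of 50, moved a change by more than 1.5 times, its value follows. An offset added to the signal by itself tends to make changes of weak probes smaller. With normexp 1.35% of all tested probes had an unadjusted p under 0.05 (limma), against 4.71% as reported. A smaller value with normexp is thus not an independent check.

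Tyrosine kinases relay signals from the cell surface by phosphorylating tyrosine. Of 6 probes, for ephrin type-A receptor 4A, ephrin type-B receptors 2 and 4, the cytoplasmic kinases FYN and TYK2, and UFO, 5 were tested, with 3 positive and 2 negative changes and a median of 0.42. Ephrin type-B receptor 2 (An_u_9849), which binds membrane-bound ephrin ligands on neighbouring cells, had levels of -3.99, -1.83, -2.37 and -2.62 in DHT50 1 to 4, against -4.10, -3.21, -3.03 and -3.36 in control 1 to 4. DHT50 2, 3 and 4 lay above every control and DHT50 1 lay among them, and the change was 0.72 ± 0.49 (± SE, n = 4 per group, as for all changes below), or 0.22 with normexp. UFO (An_u_19842, also known as AXL), a receptor that in mammals binds the ligand Gas6, had levels of -4.04, -4.67, -3.60 and -3.74 in DHT50, against -3.02, -4.18, -3.70 and -3.07 in control. Its probe was well above background on 3 DHT50 and 4 control arrays. DHT50 2 was the lowest array and the groups overlapped, with a change of -0.52 ± 0.39, or -0.31 with normexp.

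Kinases that answer to cyclic AMP or to membrane lipids were represented by 3 probes, each well above background on all 8 arrays. The beta-catalytic subunit of the cyclic AMP-dependent protein kinase (An_u_5916), the enzyme that carries the gonadotropin signal in steroid-producing cells, had levels of -4.03, -2.90, -2.87 and -3.30 in DHT50, against -4.41, -3.47, -3.38 and -2.54 in control. Control 4 held the highest level and control 1 the lowest, so all DHT50 arrays lay within the control range, and the change was 0.18 ± 0.45, or 0.10 with normexp. PRKX (An_u_17790), a related catalytic subunit, had levels of 0.67, -0.34, -0.02 and -0.01 in DHT50, against 0.37, 0.20, 0.34 and 0.39 in control. DHT50 2, 3 and 4 lay below every control and DHT50 1 above every control, and the change was -0.25 ± 0.32. Akt-2 (An_u_17263), a kinase switched on downstream of phosphatidylinositol 3-kinase, for example by insulin, had levels of -2.54, -2.0, -1.96 and -2.20 in DHT50, against -2.79, -2.23, -2.39 and -2.53 in control. Here DHT50 1 was the lowest DHT50 array and the only one of the 4 that did not exceed the controls, and the change was 0.31 ± 0.30, or 0.07 with normexp.

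Calcium/calmodulin-dependent kinases respond to calcium bound to calmodulin, and 3 probes, for kinase I and for the gamma chain of kinase II, were all well above background on all 8 arrays, with a median change of 0.32. One probe for the kinase II gamma chain (An_u_5869) had levels of -5.60, -3.05, -3.69 and -4.10 in DHT50, against -5.82, -4.76, -4.47 and -3.24 in control, a change of 0.46 ± 0.65, or 0.21 with normexp. The other probe of that chain (An_u_5867) had levels of -3.37, -3.43, -1.88 and -2.32 in DHT50, against -3.61, -1.92, -1.59 and -3.38 in control, a change of -0.13 ± 0.57, or -0.25 with normexp. The groups overlapped on both probes, control 1 was the lowest array on each, and the probes did not share a sign.

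Mitogen-activated protein kinase cascades pass a signal along a chain of kinases that phosphorylate one another. Of 8 probes of such kinases and their binding partners, 7 were tested, 4 with a positive and 3 with a negative change (median 0.25), and the SD was larger in DHT50 than in control for 7 of 7. Mitogen-activated protein kinase 12 (AN_v_13074), a stress-activated kinase of the p38 family, had levels of -5.68, -2.58, -3.77 and -4.52 in DHT50, against -6.34, -6.04, -5.01 and -4.54 in control, and was well above background on 4 DHT50 and 3 control arrays. DHT50 2 stood highest, DHT50 4 lay just above control 4, and DHT50 1 fell among the controls. The change, the most positive of all the kinase and phosphatase probes, was 1.34 ± 0.67 (unadjusted p = 0.0730, adjusted p = 0.685), and 0.32 with normexp. Mitogen-activated protein kinase organizer 1 (An_u_13081), a scaffold of the ERK cascade in mammals, had levels of -0.84, -3.47, -3.14 and -2.84 in DHT50, against -1.57, -1.80, -1.82 and -1.63 in control. Its probe was well above background on 3 DHT50 and 4 control arrays. The controls lay within a narrow span, DHT50 2, 3 and 4 below it and DHT50 1 above it, and the change was -0.87 ± 0.54, or -0.43 with normexp.

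Casein kinases are widely expressed serine/threonine kinases. In mice, males that lack the alpha' chain of casein kinase II make misshapen sperm, and casein kinase I alpha phosphorylates beta-catenin in the Wnt pathway. Of 4 probes tested, 3 had a negative change and 1 a positive one (median -0.42), and the 2 products differed in how far their probes matched. One probe for the alpha' chain of casein kinase II (AN_v_6009) had levels of -3.80, -3.20, -2.96 and -2.48 in DHT50, against -4.19, -4.03, -3.70 and -3.60 in control. DHT50 2, 3 and 4 lay above every control and DHT50 1 between control 2 and control 3, and the change was 0.77 ± 0.36 (unadjusted p = 0.0596, adjusted p = 0.685), or 0.36 with normexp. The other probe (An_u_6008) had levels of -2.83, -2.98, -2.91 and -2.79 in DHT50, against -2.89, -2.45, -2.53 and -2.61 in control, a change of -0.26 ± 0.28 in the opposite direction. Casein kinase I alpha had levels of 0.79, -0.84, 0.25 and -0.02 in DHT50, against 0.72, 0.45, 0.59 and 0.88 in control, on one probe (An_u_6007). On the other (An_u_6006) they were 1.47, -0.36, -0.20 and 0.12 in DHT50, against 1.20, 0.51, 0.75 and 0.89 in control. Both probes placed DHT50 2, 3 and 4 below every control and DHT50 1 above at least 3 of them, and the changes of -0.61 ± 0.38 and -0.58 ± 0.44 differed by only 0.031.

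The remaining 21 serine/threonine kinase probes were for subunits of the AMP-activated protein kinase, the kinases WNK1 and WNK2, MARK3, DYRK1A, CLK1, CLK2, PCTAIRE-2, SR-protein kinases 1 and 2, kinases 19 and 25, the p53-related protein kinase, receptor interacting protein kinase 5 and others. Of 19 tested, 7 changes were positive and 12 negative, with a median of -0.16. The beta-1 subunit holds the AMP-activated protein kinase, a sensor of low cell energy, together. Its probe AN_v_1536 had levels of -0.99, -3.77, -2.51 and -1.37 in DHT50, against -0.89, -0.72, -1.30 and -0.88 in control. This probe was well above background on 3 DHT50 and 4 control arrays. DHT50 2, 3 and 4 lay below every control, DHT50 2 by far the lowest, while DHT50 1 lay within the control range. The change of -1.22 ± 0.57 had the lowest unadjusted p of the kinases and phosphatases (0.0592, adjusted p = 0.685) and was -0.70 with normexp. A second probe for the same subunit (An_u_1534) had levels of -0.83, -2.06, -2.06 and -1.67 in DHT50, against -1.76, -1.25, -1.53 and -1.03 in control, with overlapping groups and a change of -0.26 ± 0.37, or -0.14 with normexp. WNK1 (An_u_17795), a kinase that in mammals governs ion cotransporters of the cell membrane, had levels of -3.01, -0.13, -1.27 and -1.04 in DHT50, against -3.77, -1.92, -1.45 and -2.15 in control. Again DHT50 2 was highest, DHT50 1 was the only DHT50 array that did not exceed the controls, and the change was 0.96 ± 0.67, or 0.58 with normexp.

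**Figure D2:**
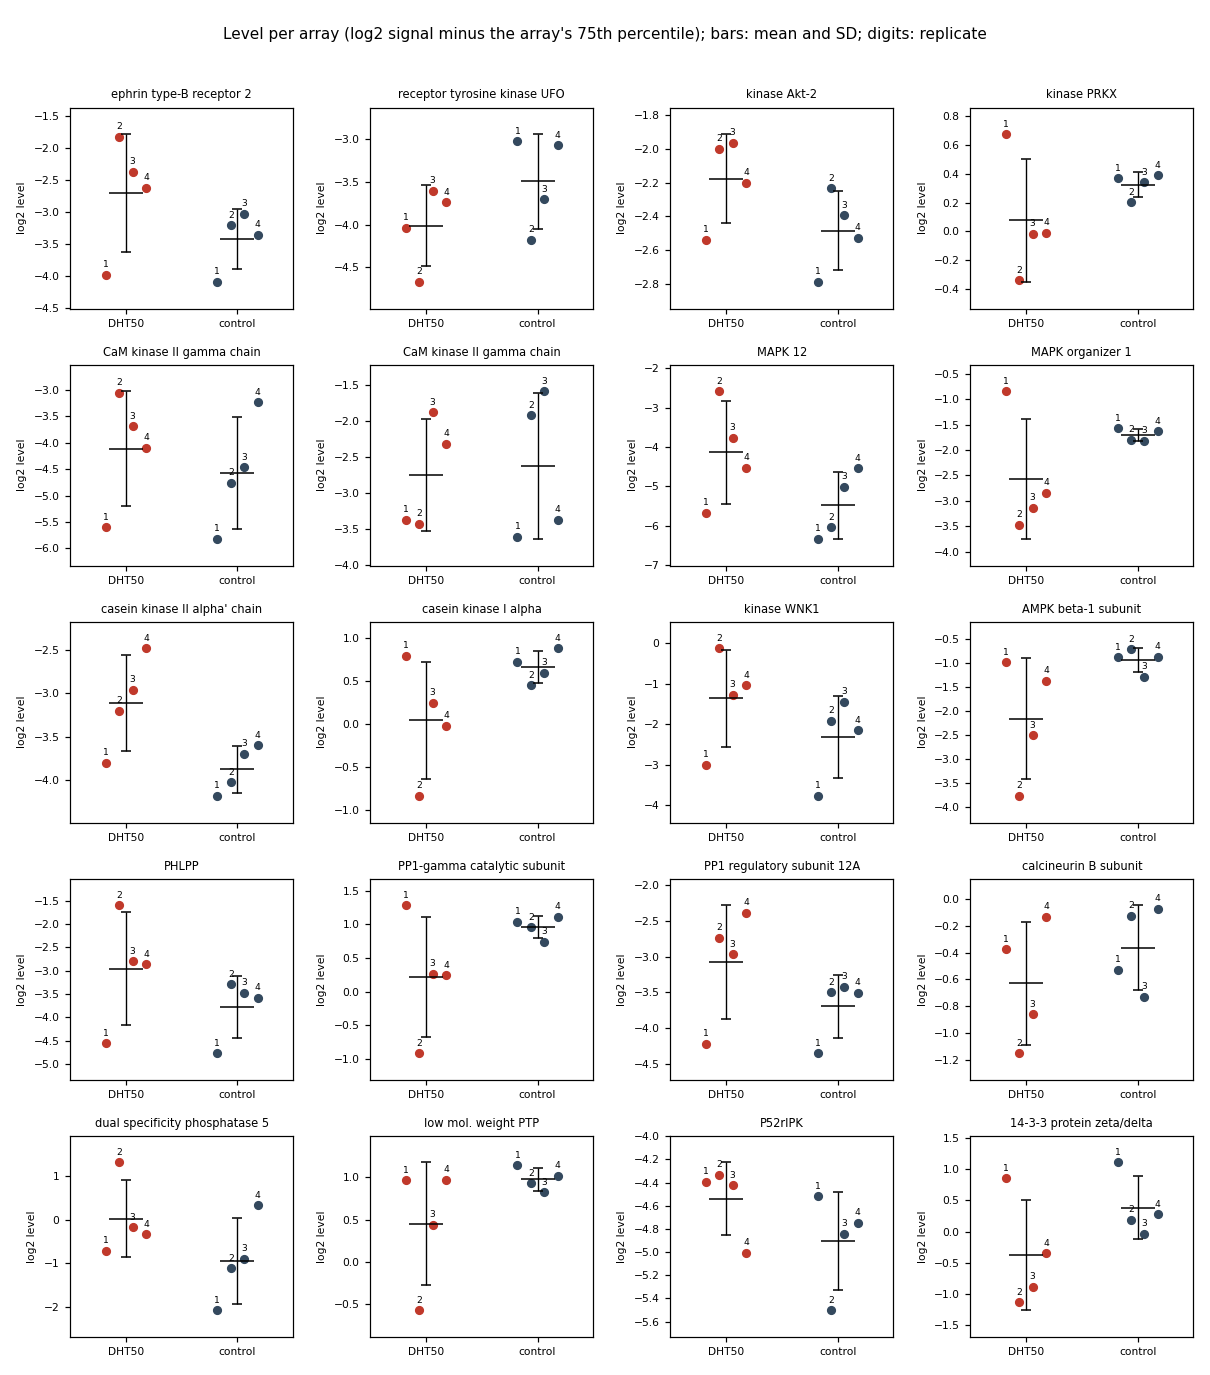
Level per array (log2 signal minus the array's 75th percentile, vertical axes with a scale of their own in each panel) of the 20 probes with the highest or lowest change of their role, DHT50 left and control right, with the mean and SD as bars and the replicate number beside each point. The groups overlap in all 20 panels, and in that of the AMP-activated protein kinase beta-1 subunit DHT50 1 lies among the controls at -0.99 and DHT50 2 at -3.77.

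Catalytic subunits of serine/threonine phosphatases were measured by 5 probes, all tested, with 3 positive and 2 negative changes (median 0.38). The PH domain leucine-rich repeat protein phosphatase (An_u_15333), which removes an activating phosphate from Akt in mammals, had levels of -4.56, -1.60, -2.80 and -2.86 in DHT50, against -4.77, -3.29, -3.48 and -3.58 in control. Only DHT50 1 did not lie above all controls, and the change was 0.82 ± 0.61, or 0.29 with normexp. The gamma catalytic subunit of protein phosphatase 1 (An_u_17780), whose loss makes male mice infertile, had levels of 1.28, -0.91, 0.26 and 0.24 in DHT50, against 1.03, 0.96, 0.74 and 1.11 in control. DHT50 2, 3 and 4 lay below every control and DHT50 1 above every control, and the change was -0.74 ± 0.45.

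Regulatory and inhibitory subunits direct a phosphatase to its substrates. Of 10 probes, 9 were tested, and their changes were the smallest of the phosphatase roles, from -0.27 to 0.61 with a median of 0.03, and only 3 positive and 2 negative signs held under all 4 scalings. Protein phosphatase 1 regulatory subunit 12A (An_u_17044), which targets the phosphatase to myosin, had levels of -4.22, -2.74, -2.97 and -2.39 in DHT50, against -4.35, -3.50, -3.42 and -3.50 in control. DHT50 1 and control 1, the brightest array of each group, were the lowest of their groups, the other DHT50 arrays lay above all controls, and the change was 0.61 ± 0.45, or 0.19 with normexp. The calcineurin B subunit (An_u_5863), the calcium-binding regulator of a calmodulin-dependent phosphatase, had levels of -0.37, -1.15, -0.86 and -0.13 in DHT50, against -0.53, -0.12, -0.73 and -0.07 in control. DHT50 1 and DHT50 4 lay within the control range and the other DHT50 arrays below it, and the change was -0.27 ± 0.35, or -0.17 with normexp.

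Tyrosine and dual specificity phosphatases reverse tyrosine phosphorylation, the dual specificity enzymes mostly on mitogen-activated protein kinases. Of 13 probes, 11 were tested, 7 with a positive and 4 with a negative change (median 0.37), and these signs held under all 4 scalings. They did not all hold with array brightness, which was partly confounded with exposure, as a covariate. In that fit dual specificity phosphatases 1 and 16, tyrosine-protein phosphatase 3 and tyrosine phosphatase non-receptor type 13 turned negative, and the other signs held. Dual specificity phosphatase 5 (An_u_9278), a nuclear phosphatase of ERK in mammals, had levels of -0.71, 1.31, -0.18 and -0.34 in DHT50, against -2.08, -1.12, -0.90 and 0.33 in control. DHT50 2 was highest and control 1 lowest, control 4 exceeded the other 3 DHT50 arrays, and the change was 0.96 ± 0.59. The low molecular weight phosphotyrosine phosphatase had levels of 0.96, -0.57, 0.44 and 0.97 in DHT50, against 1.14, 0.93, 0.82 and 1.02 in control, on probe An_u_12784. On probe An_u_12783 they were -1.54, -1.90, -1.91 and -1.66 in DHT50, against -1.40, -1.77, -1.65 and -1.54 in control. The groups overlapped on both, and the changes were -0.53 ± 0.39 and -0.16 ± 0.28.

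Among the 11 probes taken up for a mention in a long name were the 14-3-3 proteins, the receptor of activated protein kinase C, MARCKS, liprin-beta 1 and Cdc37. Of 10 tested, 6 changes were positive and 4 negative (median 0.11). The 14-3-3 protein zeta/delta (An_u_32), an adaptor that binds phosphorylated serine and threonine, had levels of 0.85, -1.13, -0.88 and -0.35 in DHT50, against 1.11, 0.19, -0.04 and 0.28 in control. DHT50 1 lay between control 1 and the others, the remaining DHT50 arrays lay below all controls, and the change was -0.76 ± 0.48. P52rIPK, named as a repressor of an inhibitor of a protein kinase, had levels of -4.39, -4.34, -4.42 and -5.01 in DHT50, against -4.52, -5.50, -4.84 and -4.75 in control, on probe An_u_1541, which was well above background on 3 arrays of each group. On its other probe (An_u_1542) they were -2.71, -2.64, -2.50 and -2.11 in DHT50, against -2.97, -2.29, -2.34 and -2.81 in control. The groups overlapped on both, and the changes were 0.36 ± 0.34 and 0.11 ± 0.32, or 0.08 and -0.019 with normexp.

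Pairs of probes with the same product name gave a check within the arrays. Of 13 names with 2 probes, both were tested for 10, and 7 of these pairs had the same sign and 3 opposite signs. The gap between the changes of a pair ran from 0.031 (casein kinase I alpha) to 1.03 (casein kinase II alpha' chain), with a median of 0.42, and exceeded 0.5 in 4 pairs. The pairs with gaps above 0.5 included the beta-1 subunit of the AMP-activated protein kinase and the casein kinase II alpha' chain, whose more strongly changed probes had the 2 lowest unadjusted p-values of the kinases and phosphatases. Whether the probes of a pair detect the same transcript could not be checked, because no probe sequences were used here.

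**Figure D3:**
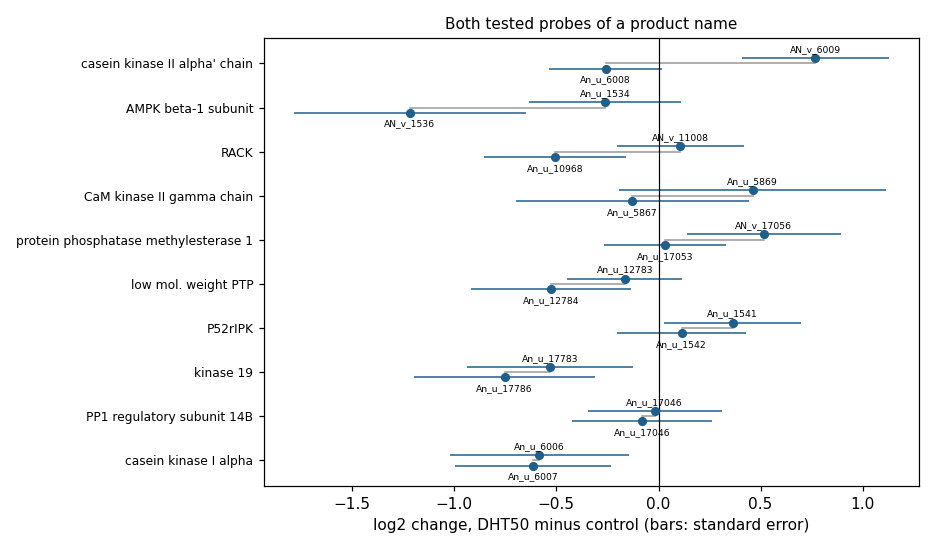
Log2 change (DHT50 minus control, horizontal axis) with its standard error for both tested probes of the 10 product names that had a pair, ordered by the gap between them, which runs from 0.031 to 1.03. Each label is the probe's identifier in the array design, and the vertical line marks no change.

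DHT50 1 often stood apart from the other DHT50 arrays. It was also the brightest of them, while DHT50 2, 3 and 4 were dimmer than every control. The part of brightness in the pattern below was not tested. In 25 of 76 probes (32.9%, against 29.2% of all tested probes), 3 of the 4 DHT50 arrays lay beyond every control on one side, 13 above and 12 below. The remaining array was DHT50 1 in 24 of these 25 (79.5% among all tested probes with this arrangement) and DHT50 4 in 1. Of these 24 probes, DHT50 1 lay within the control range in 13 and beyond every control on the opposite side in 11. Over the 76 probes, DHT50 1 lay outside the control range in 24, DHT50 4 in 34, DHT50 3 in 46 and DHT50 2 in 57. Among all tested probes the shares outside the control range were 42.4% for DHT50 1 and 47.4% for DHT50 4. For DHT50 3 the share was 56.6% and for DHT50 2 it was 66.9%. The order of the arrays was thus the same, and their brightness fell in that order.

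When DHT50 1 was left out, 19 of 76 kinase and phosphatase probes (25%) had an unadjusted p under 0.05, 8 higher and 11 lower in DHT50, where all tested probes gave 23.2% (838 of 5989 probes, 14%, higher and 551, 9.20%, lower). None of the 19 passed adjustment, with a lowest adjusted p of 0.174 among all tested probes. All DHT50 arrays left were dimmer than every control, so exposure and brightness cannot be told apart here. In that fit of 3 DHT50 against 4 control arrays the change of mitogen-activated protein kinase 12 was 1.86 and that of AMP-activated protein kinase beta-1 (AN_v_1536) was -1.61. Leaving out any other single array gave between 0 and 2 such probes, and 137 to 355 of the 5989 tested probes.

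The dimmest and the brightest array often held the highest or the lowest level, and the cause was not tested. DHT50 2, the dimmest array, held the highest or the lowest level of the 8 in 51 of 76 probes (67.1%, against 53.9% of all tested probes), highest in 25 and lowest in 26. Control 1, the brightest, did so in 35 (46.1%, against 43.0%), lowest in 31 and highest in 4. DHT50 1, with a brightness of 10.95, did so in 21 (27.6%, against 31.6%), lowest in 5 and highest in 16. DHT50 2 or control 1 stood at an end in 66 of 76 probes, where the share among all tested probes was lower, at 76.6%. These 2 arrays stood at opposite ends in 20, where 20.3% of all tested probes had them so. With brightness as a covariate the number of positive changes was 25 of 76 (32.9%, against 35.0% of all tested probes) in place of 40. Brightness was partly confounded with exposure, so the covariate fit cannot fully tell them apart. With control 1 and DHT50 2 both left out, 24 of 76 (31.6%, against 40.1%) were positive.

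**Figure D4:**
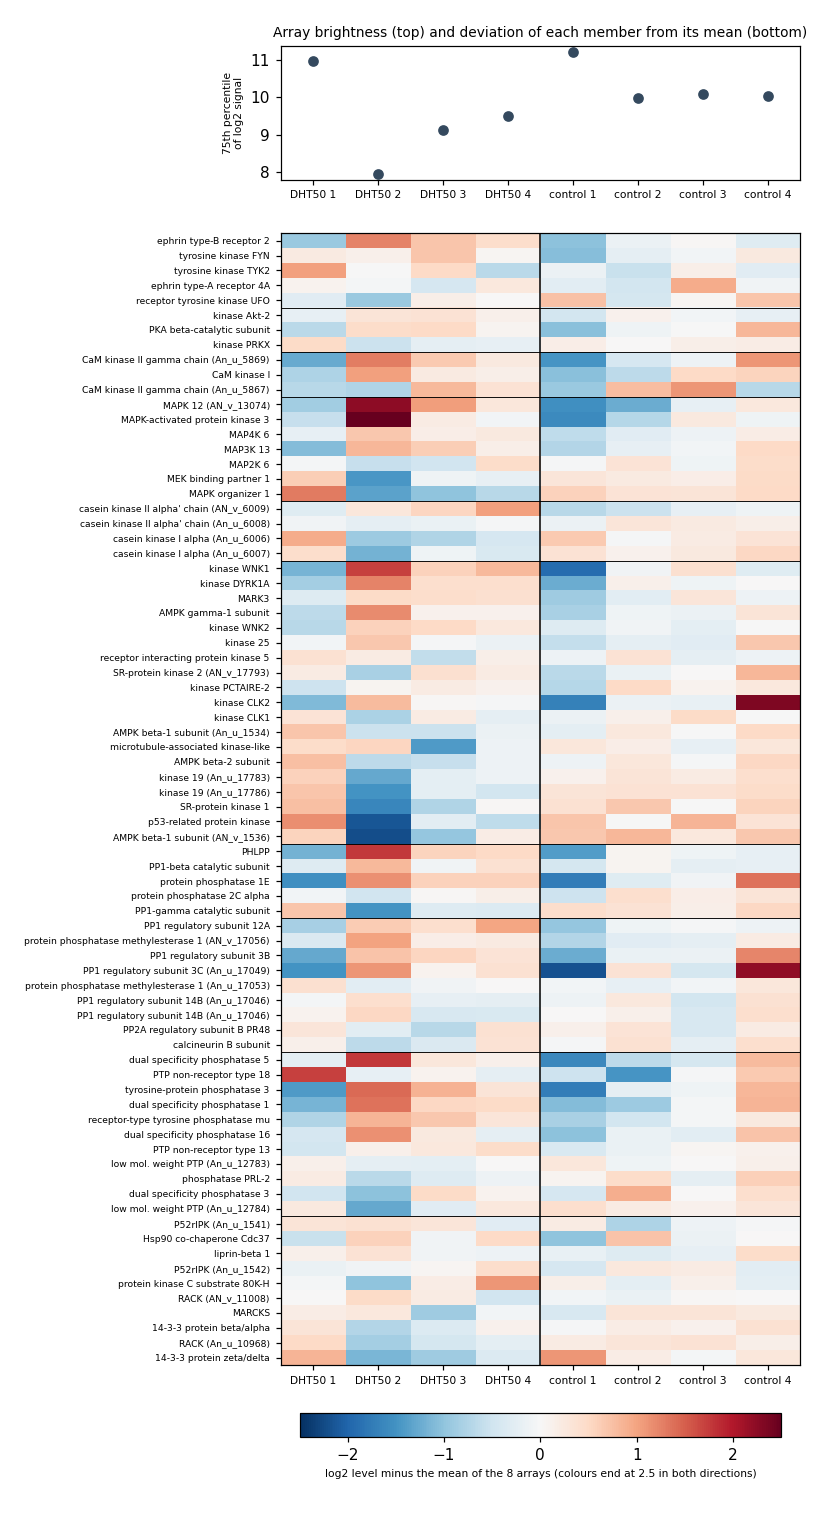
Top, the 75th percentile of log2 signal of each array. Bottom, level of each tested kinase and phosphatase probe on each array minus its mean over the 8 arrays (colour, log2 units), DHT50 left of control, roles parted by lines. DHT50 2 (brightness 7.97) and control 1 (11.21) hold the highest or the lowest level in 51 and 35 of the 76 probes.

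The slide had 2 rows, with DHT50 1, 2 and 3 and control 1 in row 1 and DHT50 4 and control 2, 3 and 4 in row 2. With the row as a block, 2 kinase and phosphatase probes reached an unadjusted p under 0.05, protein phosphatase 1 regulatory subunit 12A at 1.06 and casein kinase II alpha' (AN_v_6009) at 1.08. Among all tested probes that fit gave 6.56%. Row 1 alone gave 0 of 76 (7.11% of all tested probes) and row 2 alone gave 5 (5.31%), and 0 of the 76 passed adjustment in each of these fits. The median change was 0.35 in row 1 and 0.0024 in row 2, where all tested probes had 0.33 and 0.07, and each row held a single array of one group. In row 1 alone some probes for other products did pass adjustment. Control 1 was the only control there, so the spread between controls could not be measured in that fit.

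A list of signalling partners outside the 84 probes, such as calmodulin, other 14-3-3 proteins, adenylate cyclases, cyclic nucleotide phosphodiesterases, immediate early transcription factors, phosphatidylinositol 3-kinase and phospholipase C, was taken by product name and comprised 36 probes. Some of these names only mention a partner, among them obscurin and the precursor of glucagon-family neuropeptides. Of 32 tested, 1 was higher in DHT50 at an unadjusted p under 0.05 (3.29% of all tested probes) and 0 were lower (1.42%). Past adjustment there were 0 partners, and 0 of all tested probes. Positive changes numbered 25 and negative ones 7, 78.1% positive against 53.6% of all tested probes, with a median of 0.30 against 0.06. Choices for this list were made after its values here were seen, and some products had several probes in it. The contrast is thus a description and not a test. With normexp 24 of 32 were positive (median 0.08), where 52.2% of all tested probes were (median 0.02). With brightness as a covariate 12 of 32 were positive (median -0.09), where 35.0% of all tested probes were (median -0.13). Brightness was partly confounded with exposure, so that fit cannot fully tell them apart. With control 1 and DHT50 2 left out 14 were positive (median -0.05), where 40.1% of all tested probes were (median -0.10). The probe at the unadjusted threshold was for the alpha-1 subunit of the inhibitory G protein (An_u_11012), which restrains adenylate cyclase and thus cyclic AMP. Its levels were 0.37, 1.06, 1.21 and 1.37 in DHT50, against 0.12, -0.30, 0.60 and -0.07 in control. Only DHT50 1 lay below the highest control, and the change was 0.91 ± 0.35 (unadjusted p = 0.0269, adjusted p = 0.685). The other probe of this subunit (AN_v_11013) had a change of -0.14 ± 0.30.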

How the data were processed

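Per the labels, 4 DHT50 and 4 control males were biological replicates from individuals. Males exposed at 5 µg/L are mentioned and were not analysed here. The authors deposited spot intensity made by Agilent Feature Extraction 10.7.1.1, per the file headers: processed signal, background-subtracted and detrended within each array, with flags (0 readings saturated; 28 of 114512 flagged as outliers and left out). Each array held 14850 spots, 536 of them controls, with 2 spots per probe, on 1 slide. The authors also deposited a log2 table with a median of 7.47 on every array (r of 0.995 to 1.00 with the scanner signal), with its tool not given in the sources used here.

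From each spot's log2 signal the 75th percentile of its array over non-control spots was subtracted, spots of a probe were averaged, and probes that 4 or more of the 8 arrays showed well above background were tested with limma 3.58.1 (R 4.3.3, lmFit and eBayes, two-sided, Benjamini-Hochberg over 5989 probes). On simulated arrays with 200 of 5989 probes changed, it recovered 4.57% of 2-fold, 44.9% of 4-fold and 74.8% of 8-fold changes, with 5.14% false calls. The simulated noise was normal and independent between probes and arrays, with the same SD in both groups and no differences in brightness. These rates need not hold for the real arrays. The number of arrays limits the precision. Alternatives were normexp on the median spot signal (the mean was not used here), quantile scaling, the deposited table, other filters, the replicate number or slide row as a block, each row alone, brightness as a covariate, and arrays left out. Members, lists and alternatives were chosen with earlier results of these data known, and for the partners after their values here were seen. Named were members at an unadjusted p under 0.05 or with groups that did not overlap (none), the highest and the lowest change per role, cyclic AMP-dependent kinases, and further probes of those products. Product names are those of the array design.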

Additional observations from a re-analysis of the deposited data

Results flagged for a closer look

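Of 52 groups of 4 arrays, 2 for each of 26 named probes, 2 had an array far from the other 3, where about 1 in 20 would by chance. Protein phosphatase 1 regulatory subunit 12A had a level of -4.35 in control 1, against -3.50 to -3.42 in the other controls. P52rIPK (An_u_1541) had -5.01 in DHT50 4, against -4.42 to -4.34 in the other DHT50 arrays. In both the gap to the nearest array, as a share of the group's range, exceeded Dixon's critical value.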

How the results depend on the processing

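The count of kinase and phosphatase probes past an adjusted p of 0.05 was 0 under all 19 alternatives. Among all tested probes, some passed in row 1 alone, where control 1 was the only control, and none in the other alternatives. At an unadjusted p under 0.05 it was 0 in the analysis as reported, 2 with quantile scaling (5.24% of all tested probes), 2 with the deposited table (5.21%), 2 with the slide row as a block (6.56%), 5 in row 2 alone (5.31%), and 0 to 19 when 1 array was left out (2.29% to 23.2%). Groups did not overlap for 0 probes as reported, for 3 with quantile scaling (2.60% of all tested probes), 3 with the deposited table (2.62%), 3 without control 1 and DHT50 2 (6.33%), 42 in row 1 (54.9%) and 40 in row 2 (55.0%), where 1 group had a single array, and 0 to 24 with 1 array out (2.79% to 25.4%). The median change was 0.35 in row 1 and -0.10 to 0.13 with 1 array out. Partners at an unadjusted p under 0.05 numbered 1 as reported (4.71% of all tested probes) and 0 with normexp (1.35%). They numbered 0 with brightness (3.32%) and 0 without both arrays (2.67%). With the row as a block there were 2 (6.56%), and with 1 array out 0 to 6 (2.29% to 23.2%). With the replicate number as a block, 4 kinase and phosphatase probes (3 higher, 1 lower) and 2 partners had an unadjusted p under 0.05, where all tested probes gave 9.97%. Same-numbered arrays correlated at 0.20, 0.16, 0.38 and -0.11 (numbers 1 to 4), and 3 of 4 DHT50 arrays correlated best with their own number. Differently numbered arrays reached 0.27 (DHT50 3 with control 4) and 0.22 (DHT50 4 with control 2). DHT50 1 and control 1 were also the brightest arrays of their groups. Whether same-numbered males were paired was not tested. The labels give no shared source, and number 4 did not correlate, so the block was not used as the reported fit.

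Of 489 alternative values of the 26 named probes, 468 kept their sign, 21 reversed and 0 passed the test. Reversed values were -0.019 for P52rIPK An_u_1542 with normexp; 0.34 with the row as a block and 0.71 in row 1 for CaM kinase II gamma An_u_5867; 0.11 in row 1 for AMP-activated protein kinase beta-1 An_u_1534; and in row 2 -0.17 for the cyclic AMP-dependent kinase, 0.18 for calcineurin B and 0.047 for low molecular weight phosphotyrosine phosphatase An_u_12784. With brightness they were -0.32 for the cyclic AMP-dependent kinase, -0.45 for CaM kinase II gamma An_u_5869, 0.021 for PRKX, -0.048 for WNK1 and -0.12 for the PH domain leucine-rich repeat protein phosphatase. Without control 1 and DHT50 2 they were -0.27 for the cyclic AMP-dependent kinase and -0.31 for An_u_5869. With 1 array out, An_u_5867 ran from -0.46 to 0.22, the cyclic AMP-dependent kinase from -0.14 to 0.48 and An_u_1542 from -0.013 to 0.22. The cause of these reversals was not tested. Some of the 468 kept signs could not have reversed. The other filters and the replicate block leave each log2 change as it was and alter only its error or adjusted p.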
